A study of Mus musculus with 13 samples.

Results

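Expression in 2-cell mouse embryos was followed for 6 genes that encode close relatives of core ribosomal proteins: Rpl3l, Rpl10l, Rpl22l1, Rpl39l, Rpl7l1 and Rps27l. They were picked by symbol, and Rpl3l was picked because its level was higher in AAE than in control embryos. They are 6 of the 16739 genes listed in at least 1 embryo library. The embryos came from in vitro fertilisation with sperm of Swiss mice, and only the fathers had been injected. In AAE embryos the father had received acrylamide at 25 mg/kg per day on 5 days and sperm were taken 3 days after the last injection, when the exposed sperm had been in the epididymis. In AAS embryos dose and injections were the same and sperm were taken 24 days after the last injection, when the exposed cells had been spermatocytes. In control embryos the father had received the vehicle, PBS. Each group had 3 libraries, each made from RNA of a pool of 2-cell embryos, and the labels do not say that the pools came from separate fathers.

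The ribosome is built from ribosomal RNA and a fixed set of core proteins, and a few of these proteins have a second gene, a paralog, that is used mainly in certain tissues. A paralog protein can take the place of its core counterpart in the ribosome, as Rpl3l does for Rpl3 in heart and skeletal muscle. Rpl10l and Rpl39l are used in male germ cells, where their counterparts Rpl10 and Rpl39 lie on the X chromosome, which is silenced during meiosis. Rpl22l1 is best known from lymphoid cells, where Rpl22 holds it down, Rps27l is a target of the tumour suppressor p53, and the yeast relative of Rpl7l1 acts in assembly of the large subunit. The mouse 2-cell embryo carries stored maternal RNA and is the stage at which its own genome is switched on.

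Levels are FPKM, fragments counted per length of transcript and per depth of library, so they can be compared between genes. The files give no read totals. All 15 listed markers of the 2-cell embryo and oocyte appeared, with Obox5, Bmp15 and Oosp1 the highest, and their summed level was 3570 to 4272 FPKM in AAE, 2957 to 3741 in AAS and 3201 to 4216 in control embryos. The libraries listed 11625 to 13914 genes in AAE, 12173 to 12673 in AAS and 13675 to 14392 in control embryos. AAE replicate 3 and AAS replicate 2 stood apart, with median correlations with the other libraries of 0.872 and 0.870, against 0.894 to 0.927 for the other libraries. A value of 0 means that the gene was not listed in that library and can be a failed estimate: Rpl38, a core protein, was not listed in AAE replicate 3. With pools of embryos, fewer cells that carry an RNA and less of the RNA per cell cannot be told apart. All 6 paralogs passed the filter on low values, a mean of 1 FPKM over the 9 libraries, but Rpl3l did so only through the AAE libraries, as its mean over the other 6 libraries was 0.758 FPKM. Of 14 markers of cumulus and granulosa cells, 10 were listed and 3 passed that filter. They were Nr5a2, Cyp19a1 and Amhr2, with means of 31.9, 1.43 and 1.38 FPKM. The summed level of that list was 16.2 to 38.3 FPKM in AAE, 22.6 to 43.1 in AAS and 45.1 to 48.55 in control embryos. Most of each sum came from Nr5a2, and the difference was not tested.

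Core ribosomal protein genes typically start transcription within a run of pyrimidines (C or T), so the starts of 3 paralogs and 1 core gene are shown to set that feature beside the levels. The sequences are from RefSeq on build GRCm38.p6, where all 6 paralogs and 4 of the 6 counterparts matched, and each gives 60 bases before the annotated start and 30 from it, 5′ to 3′. Capitals mark the longest unbroken run of C or T within 20 bases on either side of the start.
Rpl3l: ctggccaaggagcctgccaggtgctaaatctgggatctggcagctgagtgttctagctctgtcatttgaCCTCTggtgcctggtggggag
Rpl22l1: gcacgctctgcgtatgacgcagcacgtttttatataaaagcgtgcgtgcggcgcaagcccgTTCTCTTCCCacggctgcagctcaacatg
Rps27l: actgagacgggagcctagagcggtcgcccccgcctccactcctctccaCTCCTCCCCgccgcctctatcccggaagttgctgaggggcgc
Rps27: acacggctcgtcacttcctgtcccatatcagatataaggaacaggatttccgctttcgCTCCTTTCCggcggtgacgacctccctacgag
These lie at chr17:24727766-24727855 on the plus strand, chr3:28805448-28805537 on the plus strand, chr9:66946026-66946115 on the plus strand and chr3:90213619-90213708 on the minus strand, in the order shown. The run of Rpl3l was 5 bases, which is the median of all 32851 promoters, and 58.42% of them held a run at least as long. Rpl22l1 had the longest run of the 6 paralogs with 10 bases, a length reached by 7.55% of all promoters and 33.8% of the 68 promoters of core ribosomal protein genes. The runs of Rps27l and Rps27 were 9 bases each, reached by 10.91% of all and 41.2% of core promoters. Relative to the first transcribed base, the run began at 9 for Rpl3l, 1 for Rpl22l1, -12 for Rps27l and -2 for Rps27. Of the runs shown, only that of Rps27 therefore spanned the annotated start. The other paralogs had runs of 7 bases (Rpl39l), 5 bases (Rpl10l) and 3 bases (Rpl7l1), against a median of 7 bases in the core genes. The motif TATAAA, searched on both strands of the 300 bases from 250 before to 50 after the start, was found in Rpl22l1 alone among the 6 paralogs, and in 13.6% of all and 8.82% of core promoters. Rpl3l and Rps27l each had another annotated start, at chr17:24732685 and chr9:66946413, with a run of 4 bases at both. These matches describe the letters only.

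Rpl3l, the muscle paralog, was higher in all 3 AAE libraries, by very different amounts, than in the AAS and control libraries, where its level was low. Rpl3l (gene ID 66211, chr17:24727826-24736143 on GRCm38) had 4.07, 56.2 and 6.66 FPKM in AAE replicates 1, 2 and 3, against 0.75, 0.51 and 0.45 FPKM in control replicates 1, 2 and 3. In AAS embryos it was not listed in replicate 1 and had 0.37 and 2.47 FPKM in replicates 2 and 3. AAE replicate 2 was 8.43 times the next highest library, and no AAE library overlapped with the control or AAS libraries. The lowest AAE value was 5.43 times the highest control value and 1.65 times the highest AAS value. The mean was 22.3 ± 29.4 FPKM in AAE and 0.57 ± 0.159 FPKM in control embryos (SD, n = 3 each), a ratio of 39.1 that is 9.41 without AAE replicate 2. On the log2(FPKM + 1) scale, which understates the change of low genes, the limma fold change of AAE over control was 3.06 (SE 0.80), and 1.99 without AAE replicate 2. Rpl3l was chosen for this difference, so it is given with no test. Of all 9766 genes past the filter, 3.73% had every AAE library above every control library. The authors' deposited table gives a log2 fold change of 5.13 for Rpl3l and lists it among 15 of 10179 genes (0.147%) with an adjusted p under 0.05 in AAE over control. That call concerns the same comparison by which Rpl3l was chosen, so it is no separate test of the difference.

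**Figure D1:**
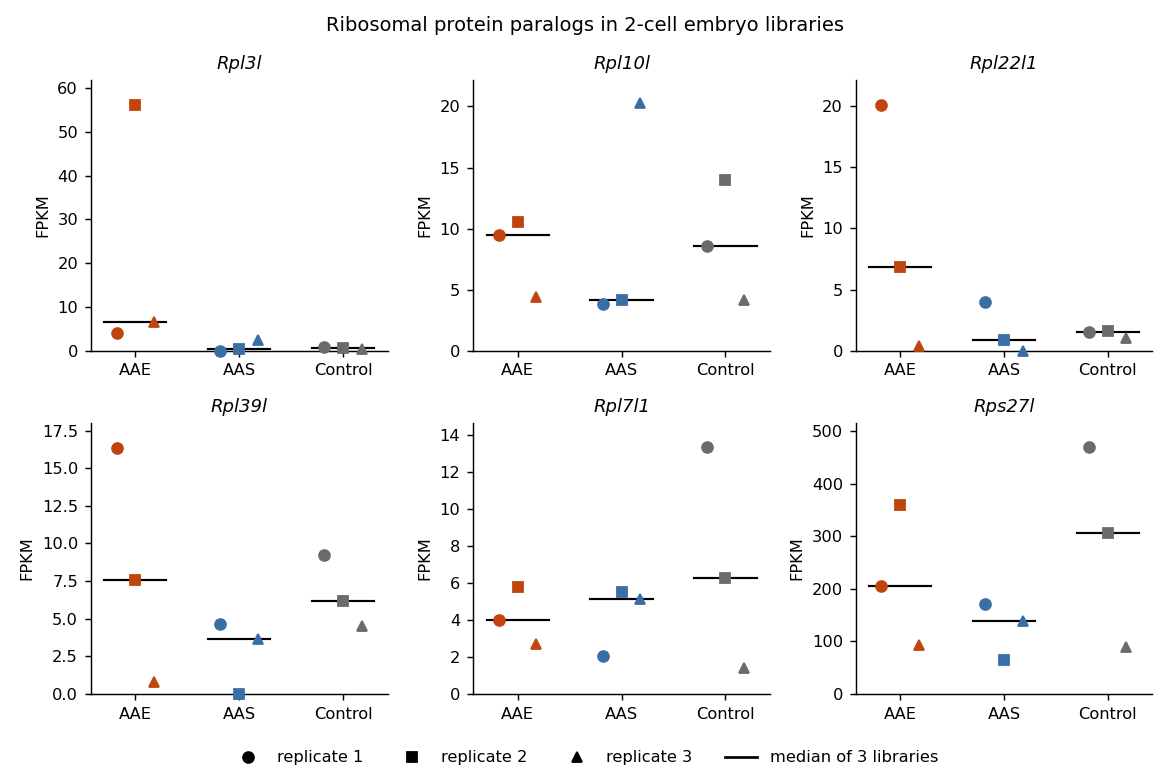
Level of the 6 paralogs in FPKM (y axis, a separate scale for each gene) in each 2-cell embryo library, with AAE, AAS and control libraries along the x axis, 1 symbol per replicate and a line at the median of 3 libraries. The 3 AAE libraries of Rpl3l, at 4.07 to 56.2 FPKM, lie above the 6 others, and the groups overlap for the other 5 genes.

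The FPKM of Rpl3l was spread unevenly over its transcripts, whose rows carry no names. In AAE replicate 2, 1 transcript row held 55.3 FPKM and a second held 0.9 FPKM. In AAE replicate 1 the rows held 2.39 and 1.68 FPKM, and in AAE replicate 3 a single row held all 6.66 FPKM. In control replicates 1, 2 and 3 the higher row held 0.57, 0.26 and 0.44 FPKM and the lower one 0.18, 0.25 and 0.01 FPKM. The highest level in AAE replicate 2 therefore came almost whole from 1 transcript.

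Rpl3, the core protein that Rpl3l replaces in muscle, showed no such separation. Rpl3 had 32.5, 26.8 and 12.3 FPKM in AAE, 19.1, 20.3 and 33.5 FPKM in AAS and 35.1, 33.9 and 18.9 FPKM in control replicates 1, 2 and 3. The 3 groups of Rpl3 overlapped, and its log2 fold change of AAE over control was -0.34 (SE 0.39, 95% interval -1.20 to 0.52). Rpl3l was above Rpl3 in 1 of 9 libraries, AAE replicate 2. The share of Rpl3l in the summed FPKM of both genes, which does not depend on how a library is scaled, was 11.1%, 67.7% and 35.1% in AAE, 0%, 1.79% and 6.86% in AAS and 2.10%, 1.48% and 2.32% in control replicates 1, 2 and 3. All 3 AAE shares lay above the AAS and control shares, but Rpl3l was chosen for its level in AAE, so this carries no test. Over the 9 libraries the Pearson correlation of Rpl3l with Rpl3 on the log2(FPKM + 1) scale was 0.00, a description that takes the 3 groups together.

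The summed level of markers of striated muscle, the tissue in which Rpl3l is mainly used, overlapped between the 3 groups. Of 27 muscle marker genes, 18 were listed in any library and 3 passed the filter: Ttn, Casq2 and Mb, with means of 15.6, 3.18 and 1.08 FPKM. The summed level of the list was 17.7 to 26.0 FPKM in AAE, 18.01 to 33.3 in AAS and 21.9 to 25.4 in control embryos. Most of each sum came from Ttn, so it says little about the other markers. Casq2 had 2.46 to 7.66 FPKM in AAS and 1.01 to 1.33 in control embryos, without overlap, as for 4.52% of all genes past the filter. Mb went the other way, with 0 to 0.48 FPKM in AAS and 0.74 to 2.78 in control embryos, as for 8.6%. The AAE libraries of Casq2 and Mb overlapped with both other groups. Actc1, Tnnt2, Tnnt3, Tnni1, Tnni2, Tnnc1, Myl3, Mybpc3 and Myh1, which encode parts of the contractile apparatus, were listed in no library. In AAE embryos 14 of the 27 were at 0 in every library, in AAS 16 and in control 9. Ckm, the muscle creatine kinase, was not listed in any AAE or AAS library and was at 0.09 FPKM or less in control embryos.

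The nearest genes on the chromosome did not share the pattern of Rpl3l. Msrb1, a methionine sulfoxide reductase that begins 450 bases after Rpl3l ends, had 20.4, 24.2 and 4.84 FPKM in AAE, 27.4, 5.56 and 17.2 FPKM in AAS and 29.0, 17.9 and 6.79 FPKM in control replicates 1, 2 and 3. Ndufb10, a subunit of respiratory complex I that ends 3403 bases before Rpl3l, had 2.61, 8.48 and 0 FPKM in AAE, 0, 0 and 4.37 FPKM in AAS and 2.06, 4.88 and 0.41 FPKM in control replicates 1, 2 and 3. Beyond them lie Rps2, a core ribosomal protein gene 5899 bases before, and Hs3st6, a heparan sulfate sulfotransferase gene 16845 bases after, which stayed at or below 0.94 FPKM. For all 4 neighbours every pair of groups overlapped.

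**Figure D2:**
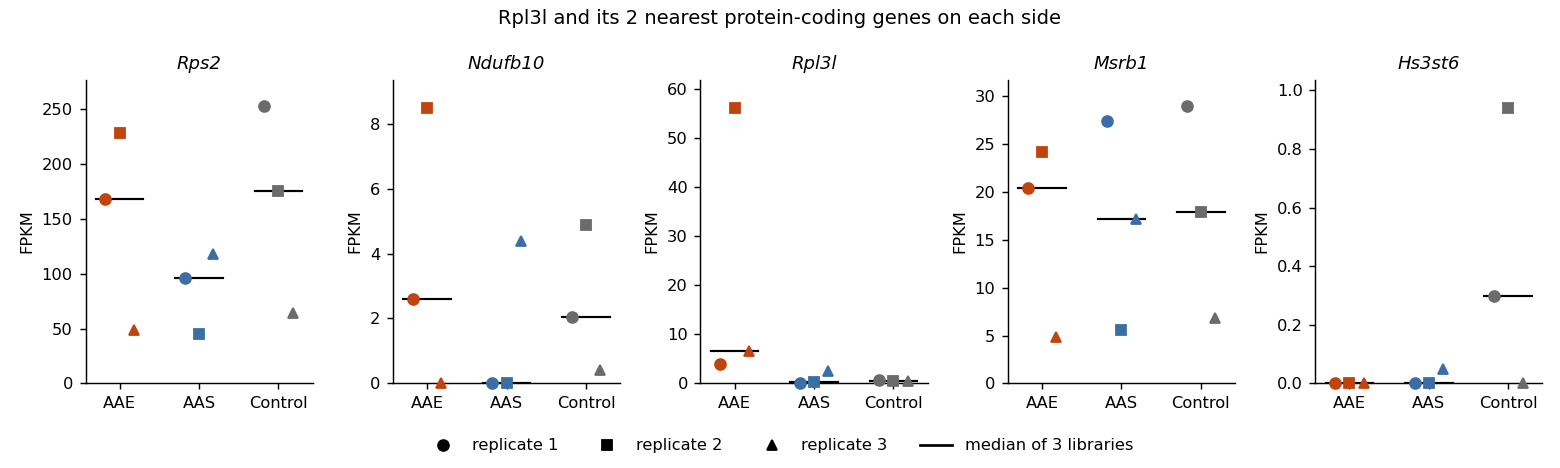
Level in FPKM (y axis, a separate scale for each gene) of Rpl3l and of the 2 nearest protein-coding genes on each side, in chromosome order, with AAE, AAS and control libraries along the x axis, 1 symbol per replicate and a line at the median of 3 libraries. Rpl3l is the gene whose AAE libraries all lie above the control libraries, and the groups of the 4 neighbours overlap.

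The 5 genes past the filter whose pattern over the 9 libraries was most like that of Rpl3l, by Pearson correlation of log2(FPKM + 1), were Nup88, a nuclear pore protein (0.937), Chchd4, which imports proteins into mitochondria (0.892), Urgcp, a regulator of cell growth (0.888), Grpel1, a cochaperone of mitochondrial Hsp70 (0.885), and Olfr161, an olfactory receptor (0.878). Without AAE replicate 2 these correlations were 0.799, 0.764, 0.508, 0.668 and 0.448, so for Urgcp and Olfr161 the likeness rested largely on that library. Chchd4 had 3.03, 5.78 and 1.58 FPKM in AAE, 0, 0 and 0.05 FPKM in AAS and 0.44, 0 and 0.51 FPKM in control replicates 1, 2 and 3, so its AAE libraries also overlapped with neither other group. Grpel1 had 5.54, 9.91 and 7.14 FPKM in AAE, 4.88, 4.50 and 3.90 FPKM in AAS and 3.71, 3.80 and 4.24 FPKM in control replicates 1, 2 and 3, again without overlap. These genes were picked for their likeness to Rpl3l, so their differences carry no test. Chchd4, Urgcp and Olfr161 also passed the filter only through the AAE libraries, with means of 0.167, 0.387 and 0 FPKM over the other 6 libraries. Among all genes past the filter, 3.73% had every AAE library above every control library. For AAE above AAS libraries it was 6.98%.

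Rpl10l and Rpl39l, the paralogs used in male germ cells, were both present in 2-cell embryos at 8.83 and 5.89 FPKM on average over the 9 libraries, and their groups overlapped. Rpl10l (gene ID 238217, chr12:66283379-66284401) had 9.47, 10.5 and 4.36 FPKM in AAE, 3.82, 4.18 and 20.3 FPKM in AAS and 8.60, 14.0 and 4.18 FPKM in control replicates 1, 2 and 3. Its highest value was in AAS replicate 3, while the other AAS libraries were at or below the lowest control library. Rpl39l (gene ID 68172, chr16:10170197-10174911) had 16.3, 7.60 and 0.80 FPKM in AAE, 4.66, 0 and 3.66 FPKM in AAS and 9.25, 6.19 and 4.54 FPKM in control replicates 1, 2 and 3. AAE held both the highest and the lowest listed value of Rpl39l, and AAE replicate 3 and AAS replicate 2, which had the lowest values, are the libraries that stood apart. The log2 fold change of AAE over control was -0.07 (SE 0.61) for Rpl10l and -0.20 (SE 0.83) for Rpl39l, and without AAE replicate 3 it was 0.28 and 0.72.

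Their core counterparts were far more abundant, and neither paralog passed its counterpart in any library. Rpl10 had 70.8, 105 and 53.6 FPKM in AAE, 71.7, 37.6 and 71.4 FPKM in AAS and 126, 86.2 and 75.4 FPKM in control replicates 1, 2 and 3. Every AAS library of Rpl10 lay below every control library, as for 8.6% of all genes past the filter, and its log2 fold change of AAS over control was -0.69 (SE 0.32, limma adjusted p = 0.780). Rpl39 had 151, 197 and 108 FPKM in AAE, 99.9, 3.54 and 112 FPKM in AAS and 252, 168 and 71.1 FPKM in control replicates 1, 2 and 3. AAS replicate 2 was the lowest library for Rpl39, Rpl39l and Rpl10.

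Most genes specific to the germ cells of the testis were low or not listed. Of 20 testis markers, 13 were listed and 8 passed the filter. Prm1, Tnp1, Tnp2, Akap4, Acr, Gapdhs and Smcp, which serve the late steps of sperm formation, were listed in no library. Prm2, which did not pass the filter, had 1.66, 4.92 and 0.3 FPKM in AAE replicates 1, 2 and 3. It had 1.61 FPKM in control replicate 3 and was not listed in the other control or the AAS libraries. Ldhc, Acrv1 and Tex101 had 6.72, 11.65 and 7.61 FPKM in AAE replicate 3, and Tex101 had 7.46 FPKM in control replicate 1. Prm2, Ldhc, Acrv1 and Tex101 were named after their values were seen. The 3 highest, Odf2, Sycp3 and Hspa2, are also expressed outside the testis or in oocytes, with means of 227, 119 and 17.5 FPKM. The summed level of the list was 382 to 414 FPKM in AAE, 303 to 330 in AAS and 419 to 433 in control embryos. Most of each sum came from Odf2 and Sycp3, so it says little about the testis-specific markers. Sycp3 alone had 116 to 146 FPKM in AAE, 78.6 to 89.25 in AAS and 132 to 164 in control embryos. The part of these markers in the levels of Rpl10l and Rpl39l was not tested.

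Rpl22l1, the paralog that Rpl22 holds down in lymphoid cells, varied most between libraries within the AAE group. Rpl22l1 (gene ID 68028, chr3:28805508-28807424) had 20.1, 6.81 and 0.41 FPKM in AAE, 3.98, 0.88 and 0 FPKM in AAS and 1.54, 1.65 and 1.02 FPKM in control replicates 1, 2 and 3. AAE replicates 1 and 2 were above all other libraries, and AAE replicate 3 was below all control libraries, so the groups overlapped. The AAE values spanned 49.0 times, against 13.8 times for Rpl3l. Its log2 fold change of AAE over control was 1.37 (SE 0.87), and it was 2.43 without AAE replicate 3 and 0.48 without AAE replicate 1. The authors' deposited table gives a log2 fold change of 2.74 for Rpl22l1 in AAE over control, and it is not among the 15 genes with an adjusted p under 0.05 there.

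Rpl22 was itself low for a core ribosomal protein, at 4.52 FPKM on average, where the 79 core genes had a median of 48.8 FPKM. It had 2.53, 6.33 and 1.01 FPKM in AAE, 6.43, 2.43 and 3.04 FPKM in AAS and 9.43, 5.15 and 4.31 FPKM in control replicates 1, 2 and 3. Rpl22l1 was above Rpl22 in 2 of 9 libraries, AAE replicates 1 and 2. The share of Rpl22l1 in the summed FPKM of both genes was 88.8%, 51.8% and 28.9% in AAE, 38.2%, 26.6% and 0% in AAS and 14.0%, 24.3% and 19.1% in control replicates 1, 2 and 3. All 3 AAE shares lay above all 3 control shares, although the levels of Rpl22l1 overlapped, since Rpl22 was low in the AAE library in which Rpl22l1 was low. In that library, AAE replicate 3, the share rests on only 0.41 FPKM of Rpl22l1 and 1.01 FPKM of Rpl22, so the separation is uncertain. It is also 1 of 6 pairs looked at, and how often the shares of other gene pairs separate was not computed. AAE and AAS shares overlapped.

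**Figure D3:**
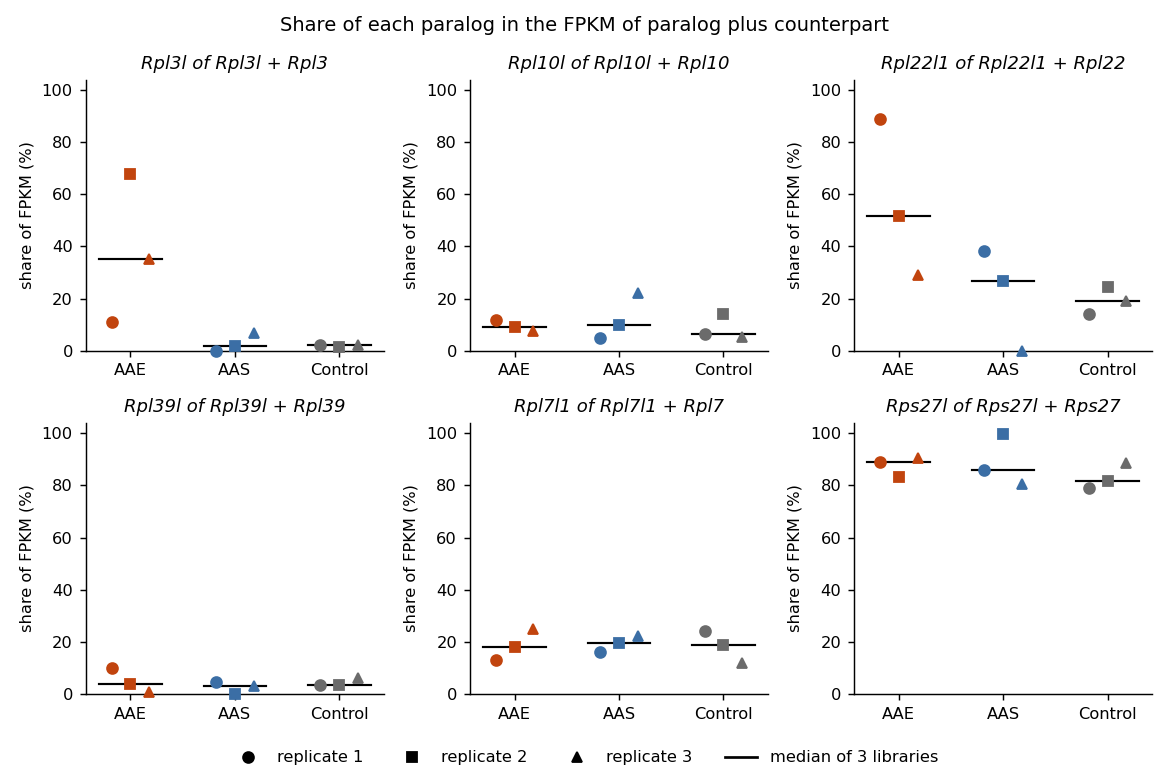
Share of each paralog in the FPKM of paralog plus core counterpart, in percent (y axis), in the AAE, AAS and control libraries along the x axis, with 1 symbol per replicate and a line at the median of 3 libraries. The AAE shares of Rpl3l (11.1% to 67.7%) and Rpl22l1 (28.9% to 88.8%) lie above the control shares, and Rps27l holds 78.95% or more of its pair in every library. The lowest AAE share of Rpl22l1 rests on 0.41 FPKM of Rpl22l1 and 1.01 FPKM of Rpl22. How often the shares of other gene pairs separate was not computed.

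Rpl7l1, the relative of the large subunit protein Rpl7, was low in all groups. Rpl7l1 (gene ID 66229, chr17:46773907-46782656) had 3.99, 5.80 and 2.69 FPKM in AAE, 2.03, 5.50 and 5.15 FPKM in AAS and 13.4, 6.25 and 1.40 FPKM in control replicates 1, 2 and 3. The control group held both its highest and its lowest value, and the mean was 4.16 ± 1.56 FPKM in AAE, 4.23 ± 1.91 in AAS and 7.01 ± 6.02 in control embryos (SD, n = 3 each). Rpl7 had 26.6, 26.5 and 8.15 FPKM in AAE, 10.7, 22.7 and 17.95 FPKM in AAS and 42.2, 26.9 and 10.6 FPKM in control replicates 1, 2 and 3. Paralog and counterpart went up and down together over the libraries (Pearson r = 0.892 on the log2 scale, 9 libraries, a description), and the share of Rpl7l1 kept between 11.7% and 24.8% of the pair. The log2 fold change of AAE over control was -0.33 (SE 0.61) for Rpl7l1 and -0.34 (SE 0.54) for Rpl7.

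Rps27l, the p53 target, was the paralog with by far the highest level and had the highest mean of all 85 core and paralog genes, 211 FPKM, ahead of the core protein Rpl4 at 160.1 FPKM. The next highest core genes were Rpl23a and Rps26, with means of 151.4 and 138.1 FPKM. Rps27l (gene ID 67941, chr9:66944624-66949522) had 206, 360.1 and 92.4 FPKM in AAE, 171, 65.0 and 138 FPKM in AAS and 471, 306 and 88.9 FPKM in control replicates 1, 2 and 3. It ranked 1 of the 85 genes in 4 of 9 libraries and between 1 and 3 in all 9. The groups overlapped, with means of 219 ± 134 FPKM in AAE, 125 ± 54.4 in AAS and 289 ± 192 in control embryos (SD, n = 3 each). The lowest and highest control libraries, and the lowest and highest AAE libraries, lay further apart than any pair of group means.

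Rps27l was above its counterpart Rps27 in 9 of 9 libraries, by 3.75 to 271 times. Rps27 had 25.4, 72.9 and 9.73 FPKM in AAE, 28.0, 0.24 and 33.0 FPKM in AAS and 126, 68.5 and 11.5 FPKM in control replicates 1, 2 and 3. The largest ratio came from AAS replicate 2, where Rps27 was almost at 0. The share of Rps27l in the pair was 89.0%, 83.2% and 90.5% in AAE, 86.0%, 99.6% and 80.7% in AAS and 78.95%, 81.7% and 88.6% in control replicates 1, 2 and 3. How reads that match both genes or their other copies were assigned is not given in the sources used here, so the split within each pair is uncertain.

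The level of Rps27l followed that of the core ribosomal protein genes in the same library. The 79 core genes summed to 4644, 6460 and 2144 FPKM in AAE, 4219, 1157 and 3858 FPKM in AAS and 7895, 5375 and 2509 FPKM in control replicates 1, 2 and 3, a range of 6.82 times. Set against that sum, Rps27l was 4.43%, 5.57% and 4.31% in AAE, 4.06%, 5.62% and 3.58% in AAS and 5.97%, 5.70% and 3.54% in control replicates 1, 2 and 3. Its FPKM ranged over 7.25 times and its percentage of the core sum over 1.68 times. On the log2 scale the Pearson correlation with the core sum over the 9 libraries was 0.956 for Rps27l, 0.870 for Rpl39l, 0.578 for Rpl10l, 0.466 for Rpl7l1, 0.425 for Rpl22l1 and 0.268 for Rpl3l. These are descriptions, in which both values come from the same library. Factors of the median ratio scaling of the libraries ran from 0.921 in AAS replicate 2 to 1.13 in control replicate 1. The cause of the range in the core sum was not tested. By mean FPKM among the 85 genes, Rpl10l ranked 78, Rpl3l 80, Rpl39l 81, Rpl7l1 82 and Rpl22l1 84.

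**Figure D4:**
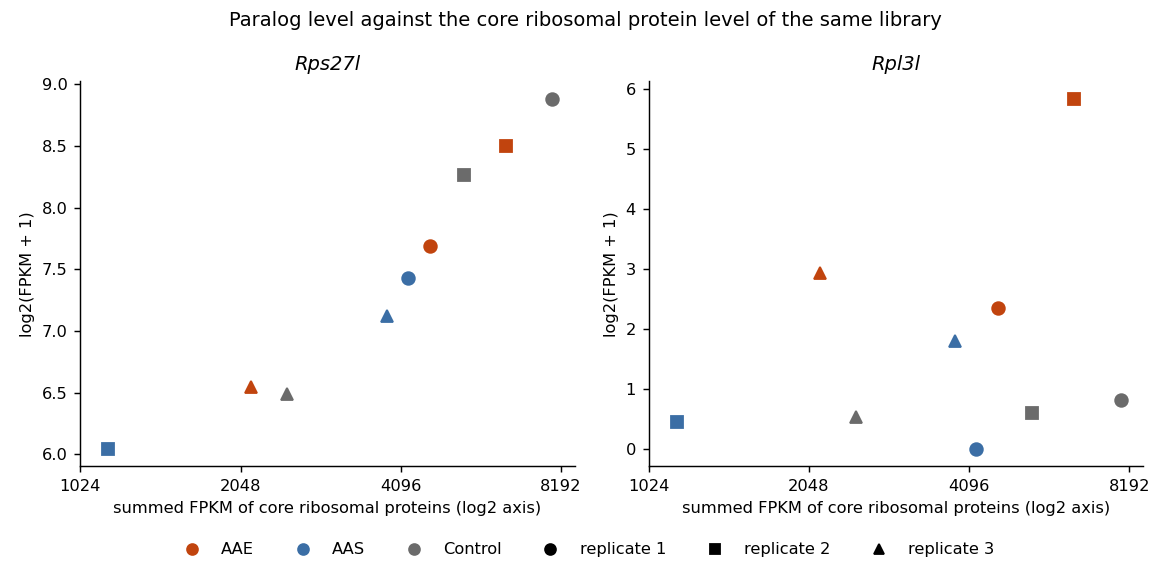
Level of Rps27l (left) and Rpl3l (right) as log2(FPKM + 1) (y axes, separate scales) against the summed FPKM of 79 core ribosomal protein genes in the same library (x axis, log2 scale), with 1 point per library, coloured by group and shaped by replicate. Rps27l lies along a line with the core sum (r = 0.956, 9 libraries), while the AAE points of Rpl3l lie high at core sums of 2144 to 6460 FPKM.

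Other targets of p53 were taken as a list of 16 genes, of which 15 were listed and 9 passed the filter. In limma 0 of the 9 passed the test in AAE or AAS over control, which is the background itself, as 0% of all 9766 genes did in either comparison. Mdm2, which degrades p53, was the highest with a mean of 43.4 FPKM, followed by Trp53inp1 at 24.2 and Sesn2 at 20.8 FPKM. Cdkn1a, the cell cycle inhibitor that is the best known target, had 10.3, 15.3 and 10.01 FPKM in AAE, 22.0, 16.5 and 34.3 FPKM in AAS and 17.5, 22.95 and 18.1 FPKM in control replicates 1, 2 and 3. Every AAE library of Cdkn1a lay below every control library, as for 4.78% of all genes past the filter, and below every AAS library, as for 4.28%. The median log2 fold change of the 9 target genes was -0.06 for AAE over control and -0.08 for AAS over control. Cdkn1a was named outside the rule for named genes, after its values were seen.

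Taking the AAS embryos against the controls, a comparison that did not choose the paralogs but shares its control libraries with the AAE comparison, 0 of the 5 paralogs other than Rpl3l passed limma's test. The background was the same, 0% of 9766 genes at an adjusted p under 0.05, with 602 genes (6.16%) at an unadjusted p under 0.05 and none of these 5 paralogs among them. Rpl3l passed the filter only through the AAE libraries that chose it, so its log2 fold change of 0.10 (SE 0.80, 95% interval -1.66 to 1.87) is given with no test. The largest differences of the 6 were those of Rpl39l at -1.32 (SE 0.83, 95% interval -3.13 to 0.50, adjusted p = 0.796) and Rps27l at -1.01 (SE 0.62, 95% interval -2.37 to 0.34, adjusted p = 0.796). Without AAS replicate 2 they were -0.53 and -0.60. Rpl10l was at -0.16, Rpl22l1 at -0.18 and Rpl7l1 at -0.35, with adjusted p of 0.972, 0.977 and 0.933 in limma. All 6 paralogs overlapped between AAS and control libraries, where 4.52% of all genes tested had every AAS library above and 8.6% every AAS library below the control libraries. The core ribosomal protein genes had a median of -0.89 and all genes tested a median of -0.11, so the value of Rps27l lay close to that of the core genes. Rpl36al, another ribosomal paralog outside the 6, was at -1.23 (adjusted p = 0.783 in limma). For these 5 paralogs the authors' deposited table gives log2 fold changes of AAS over control of -1.19 for Rpl39l, -1.09 for Rps27l, -0.56 for Rpl7l1, 0.30 for Rpl22l1 and 0.17 for Rpl10l, none among its 35 of 10216 genes (0.343%) with an adjusted p under 0.05. No value for Rpl3l in AAS over control was found in that table.

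In AAE over control, 0 of 9766 genes (0%) had an adjusted p under 0.05 in limma, and 206 (2.11%) had an unadjusted p under 0.05. The log2 fold changes of the 6 paralogs had a median of -0.14, with Rpl3l and Rpl22l1 positive and the other 4 negative, beside medians of -0.29 for the core genes and -0.05 for all genes tested. The paralogs other than Rpl3l and Rpl22l1 lay between -0.33 and -0.07.

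**Figure D5:**
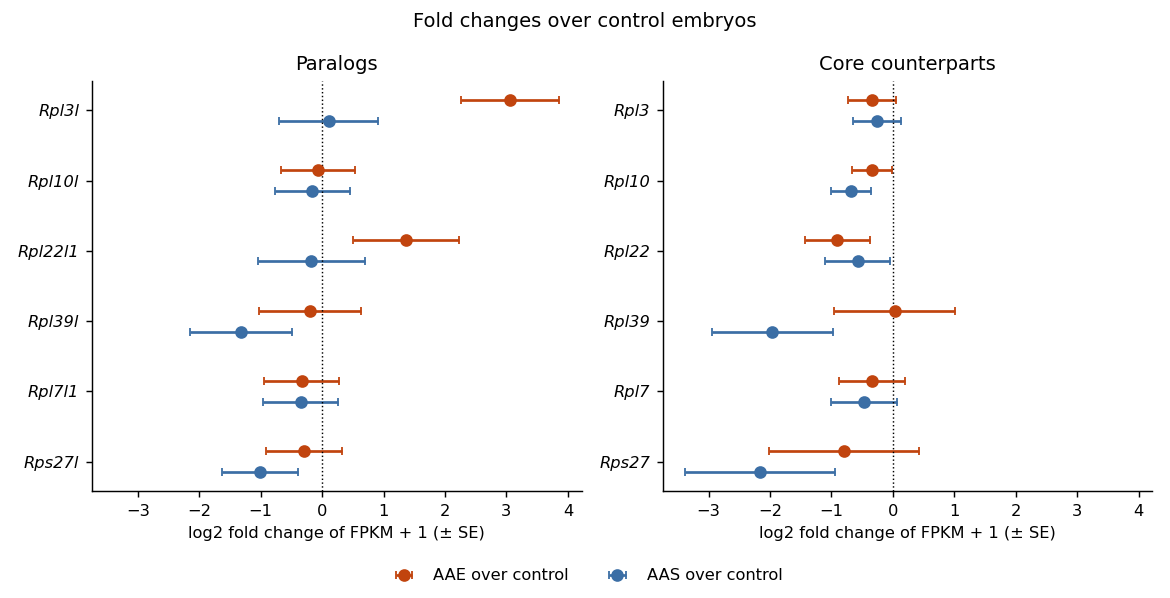
Log2 fold changes of FPKM + 1 over control embryos (x axis), from limma with bars of 1 SE on either side (narrower than 95% intervals), for the 6 paralogs (left) and their core counterparts (right), with AAE over control above AAS over control for each gene. Rpl3l in AAE over control (3.06, SE 0.80) is the difference for which that gene was chosen and is shown as a description.

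AAE embryos were also set directly against AAS embryos, which shares the AAE libraries with the contrast that chose Rpl3l. Here 0 of 9766 genes (0%) had an adjusted p under 0.05, and 755 (7.73%) had an unadjusted p under 0.05. For Rpl3l the log2 fold change was 2.96 (SE 0.80), given with no test, and 1.89 without AAE replicate 2. Among all genes 6.98% had every AAE library above every AAS library. Of the other 5 paralogs none passed limma's test: Rpl22l1 was at 1.54 (SE 0.87, adjusted p = 0.684), Rpl39l at 1.12 (SE 0.83, adjusted p = 0.766) and Rps27l at 0.71 (SE 0.62, adjusted p = 0.803). Rpl10l was at 0.09 and Rpl7l1 at 0.02. The authors' deposited table gives this comparison in the other direction, AAS over AAE, with log2 fold changes of -4.51 for Rpl3l, -2.43 for Rpl22l1, -1.55 for Rpl39l, -0.75 for Rps27l, 0.26 for Rpl10l and 0.11 for Rpl7l1. Of these, Rpl3l is among its 55 of 9950 genes (0.553%) with an adjusted p under 0.05. This call too involves the AAE group by which Rpl3l was chosen, so it is no separate test.

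The share of a paralog in its pair was tested between AAS and control embryos for all 6 pairs with a two-sided exact permutation test, which cannot go below p = 0.10 with 3 against 3 libraries. The mean share in AAS minus that in control embryos was 0.918 percentage points for Rpl3l, 3.87 for Rpl10l, 2.46 for Rpl22l1, -1.82 for Rpl39l, 1.04 for Rpl7l1 and 5.69 for Rps27l. The exact p was 0.7 for Rpl10l, 0.9 for Rpl22l1, 0.4 for Rpl39l, 0.9 for Rpl7l1 and 0.6 for Rps27l, and each was 0.9 after Benjamini-Hochberg adjustment over the 6 pairs. Rpl3l counted among these 6 pairs, but its p is left out, since the control libraries are part of the comparison that chose it. The shares were computed without the filter on low values, and those of Rpl3l in AAS and control embryos rest on levels of 2.47 FPKM or less. For Rps27l the difference was 0.258 percentage points without AAS replicate 2, the library in which Rps27 was almost at 0. The AAE shares of the 4 pairs not led by Rpl3l or Rpl22l1 overlapped with the control shares, at 9.47% and 8.54% on average for Rpl10l, 4.74% and 4.36% for Rpl39l, 18.6% and 18.2% for Rpl7l1 and 87.6% and 83.1% for Rps27l in AAE and control embryos.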

How the data were processed

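For the embryos the authors deposited FPKM values, 1 per transcript, from 9 RNA-seq libraries of pooled 2-cell embryos (Nugen Trio kit, per the labels' protocols). Transcripts at 0 are not listed. The submitters' processing notes name HISAT2 2.0.4, DESeq2 and mm10, with no role or order. How reads shared by paralogs or near-identical copies were split is not given in the sources used here. The authors' deposited series table holds log2 fold changes and p-values, used only where it is named; 18 columns of per-sample values in it and the 4 sperm small RNA libraries were not used.

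FPKM were summed over the transcripts of a gene, and unlisted genes were taken as 0. Genes were kept where the mean over the 9 libraries was at least 1 FPKM (9766 genes). Log2(FPKM + 1) of all 9 libraries was fitted at once with limma 3.58.1 in R 4.3.3 (eBayes with trend), two-sided, with Benjamini-Hochberg adjustment at 0.05 over all genes. A count model had been planned in case the files held counts, and was not needed. No read totals are given, so no counting error can be stated. Whether replicates came from separate animals is not in the labels, and p-values reflect only how far these samples spread, which may be technical. The script was tested on simulated data.

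The paralogs, gene lists and tests were chosen with earlier results of these data known. Genes named are the 6 paralogs, their 6 counterparts, the 5 genes most like Rpl3l, the 2 nearest protein-coding genes on each side of it, and the 3 highest of each list, with others counted. Marker genes at 0 are named too, and some genes were named after their values were seen. Coordinates and promoter sequences are from RefSeq on GRCm38.p6. Protein sequences were not used here. Alternatives were another pseudocount (0.1), no filter or a filter at a mean of 2 FPKM, only the 2 groups compared, median ratio scaling, the highest transcript row in each library in place of the sum, a replicate block, array quality weights and leaving out each library. Python 3.11.15 with pandas 2.3.3, NumPy 2.4.6 and matplotlib 3.10.9 served for the other steps.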

Additional observations from a re-analysis of the deposited data

How the results depend on the processing

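The count of genes with an adjusted p under 0.05 was 0 in each of the 3 comparisons under all 14 alternatives, with smallest adjusted p of 0.289 to 1 for AAE over control, 0.136 to 0.999 for AAS over control and 0.0682 to 0.387 for AAE over AAS, so no alternative in limma gave a call that could be lost. Of 252 paralog values under alternatives, 24 had the opposite sign and 228 kept it. Many of the 228 kept it by construction. The changes of filter, the fit of only the 2 groups compared and the replicate block leave every fold change as it was. The highest transcript row does so for genes with a single row, so the 228 overstate how stable the signs were. None of the values that changed sign had passed a test, and the cause was not tested. With a pseudocount of 0.1, Rpl3l was at -0.41 in AAS over control and at 4.56 in AAE over AAS. Rpl10l in AAE over AAS was at -0.0343 with array quality weights, and Rpl7l1 at -0.0242 with median ratio scaling. Leaving out 1 library in turn, the log2 fold changes of AAS over control ran from -0.42 to 0.48 for Rpl3l, from -0.86 to 0.21 for Rpl10l, from -0.80 to 0.36 for Rpl22l1 and from -1.04 to 0.25 for Rpl7l1. Those of AAE over AAS ran from -0.28 to 0.79 for Rpl10l and from -0.34 to 0.24 for Rpl7l1. Differences in share between AAS and control ran from -1.07 to 2.36 percentage points for Rpl3l, -1.01 to 7.54 for Rpl10l, -5.85 to 13.3 for Rpl22l1 and -2.23 to 3.96 for Rpl7l1. In AAE over control, Rpl3l kept between 1.99 (without AAE replicate 2) and 3.74 when 1 library was left out, and between 3.0008 and 4.15 under the other alternatives, while ranges that crossed 0 were -0.47 to 0.29 for Rpl10l, -0.92 to 0.72 for Rpl39l, -1.03 to 0.26 for Rpl7l1 and -0.9958 to 0.21 for Rps27l on leaving out 1 library, and Rpl22l1 ran from 0.48 to 2.43. Rpl39l was also at 0.22 there with array quality weights. Same-numbered libraries deviated from their group means with correlations between -0.176 and 0.206. With 3 libraries in a group these values cannot show whether the numbers pair the samples, and the labels do not say. The fit with a replicate block also called 0 genes in each comparison. It had 201, 582 and 737 genes at an unadjusted p under 0.05 in AAE over control, AAS over control and AAE over AAS. Depth is unknown, and values near 0 FPKM may rest on few reads.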

Other observations

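A single high library was not particular to Rpl3l. Of the 9766 genes past the filter, 47 (0.481%) reached 10 FPKM or more in 1 library and at least 5 times the next highest library there, limits that were set after the value of Rpl3l in AAE replicate 2 had been seen. AAE replicates 1, 2 and 3 held 5, 7 and 6 of these genes, AAS replicates 1, 2 and 3 held 18, 6 and 1, and control replicates 1, 2 and 3 held 2, 1 and 1. Rpl3l was 1 of the 7 in AAE replicate 2.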
